A study of Mus musculus with 8 samples.

Results

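The expression of 9 genes with known roles in endocardial cushion formation was examined in single endocardium cells: the transcription factors *Snai1*, *Snai2*, *Twist1*, *Zeb1*, *Zeb2* and *Msx1*, the matrix genes *Has2* and *Vcan*, and the ligand *Tgfb2*. Their probes were found by gene name alone, the choice of genes having been made with earlier results of these data known, and every non-control probe that carries one of these names on the array was used, 13 of 55295 usable probes. The arrays are 8 single endocardium cells from the heart tube of mouse embryos at E8.5 with 9 somites, with 1 cell per array, 4 of wild-type (WT) and 4 of *Sox17* knockout (KO) embryos. By the labels, all 8 cells came from the heart tube and went through the same trypsin treatment. The methods of the study instead give the heart ventricle as the source of the cells. The WT embryos were Mesp1+/+_Sox17flox/flox and the KO embryos Mesp1Cre/+_Sox17flox/flox, so that all 8 cells came from embryos with both *Sox17* alleles floxed, and the KO embryos alone carried Cre from 1 *Mesp1* allele, which is active in early mesoderm and the heart lineages that come from it. The labels do not name the embryos of the cells, and the genotype was read from embryo tails rather than from the cell. Each genotype therefore counts as 1 sample, no test was made, and each difference is given with the SD between cells, which describes these 8 cells and not the genotypes.

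The endocardium is the endothelial lining of the heart. In the atrioventricular canal and outflow tract, some of its cells later loosen their junctions and enter the matrix beneath them, an epithelial-to-mesenchymal transition (EMT) that forms the endocardial cushions from which valves and septa develop. TGF-beta and BMP ligands, NOTCH signals and hyaluronan are known to promote this step, and the SNAIL, TWIST and ZEB families of transcription factors repress junction genes during it.

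Depth was taken as the number of probes that the scanner software called well above background, which ranged from 11370 to 18175 probes, or from 20.6% to 32.9% of all usable probes. WT cell 1 was the shallowest, its array was the only one that the scanner software marked for evaluation, and its replicate spots varied most (median coefficient of variation 7.65%, against 3.55% to 4.38% in the other 7 cells). All 8 arrays lie on 1 slide, with the WT cells along one side and the KO cells along the other, and genotype and position on it cannot be told apart. *Sox17* itself, with 2 probes, reached no call well above background on any array and does not check the genotype labels. Of 10 endocardial or endothelial markers, 7 to 10 were detected in WT cells and 7 to 9 in KO cells. Of 9 cardiomyocyte markers, 3 to 7 were detected in either genotype, while epicardial and endoderm markers were detected in no cell.

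The probes decide what could be seen, and their sequences are shown for the genes whose signals carry the results below. Each probe has 60 bases, its positions are on the mm9 build, and the strand is that of the transcript. A stretch of 30 bases is shown for most probes and the whole probe for 2 of them, with the letters AATAAA, the usual polyadenylation signal, in capitals where a probe holds them. These letters were found in 2 of 13 member probes, those of *Twist1* and *Has2*, against 10.05% of all 55295 probes on the probe strand and 3.74% on the other strand. The first 4 sequences belong to genes that were detected in 3 cells or, for *Zeb2*, in 1 cell and dark in the others, and the next to *Msx1*, which was detected in every cell.
Snai1, chr2:167368073-167368132, plus strand, first 30 bases: gtttcacagcagtttaactgtctcagaagg
Twist1, chr12:34644411-34644470, plus strand, bases 24 to 53: aacacctttagaAATAAAaacgctgggatc
Has2, chr15:56497356-56497415, minus strand, bases 15 to 44: acacaccctgacAATAAAtgaaactaaaac
Zeb2, chr2:44840038-44840097, minus strand, first 30 bases: tacgtgggggaaaatatatgtgaaagcaat
Msx1, chr5:38212305-38212364, minus strand, first 30 bases: acacttcctcctggttgtcgcttcctaaac

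*Vcan* and *Tgfb2* are shown with more than 1 probe because their probes bear on what their signals mean. For *Vcan* the first probe was detected in every cell and the other 2 in none.
Vcan, detected probe, chr13:89851810-89851869, minus strand, whole: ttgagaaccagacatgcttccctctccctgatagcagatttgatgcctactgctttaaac
Vcan, dark probe on the same transcript, chr13:89850072-89850131, minus strand, first 30 bases: cggcaggctttaggttgtctatgtaaatga
Vcan, dark probe on another transcript, chr13:89795080-89795139, minus strand, first 30 bases: ttcatcctaatgtgtactagagcacagaaa
Tgfb2, chr1:188449333-188449392, minus strand, whole: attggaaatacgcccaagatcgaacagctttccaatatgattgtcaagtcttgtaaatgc
Tgfb2, chr1:188447534-188447593, minus strand, first 30 bases: tcatccattatttccctgatttcattgaaa

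Most of the 9 genes that were detected at all were bright in some cells and dark in others. By any probe, *Msx1* and *Vcan* were detected in all 8 cells, *Snai1*, *Twist1*, *Zeb1* and *Has2* in 3 cells each, *Zeb2* in 1, and *Snai2* and *Tgfb2* in none. WT cells 1 to 4 had 2, 4, 3 and 4 of the 9 genes well above background, and KO cells 1 to 4 had 4, 5, 2 and 5. The counts of the genotypes overlap, with medians of 3.5 in WT and 4.5 in KO cells, and the lowest count of 2 was found in 1 cell of each genotype.

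The number of genes detected did not follow the depth of the arrays in a simple order. KO cell 3 was the second deepest array, with 16853 probes, and had 2 of the genes, while KO cell 2 had 12781 probes and 5 of the genes. Over all cells, 29 of 104 pairs of a member probe and a cell were well above background (27.9%), close to the 27.2% of such pairs over all probes. These were 13 of 52 pairs in WT and 16 of 52 in KO cells. As a set, the 13 probes were thus detected about as often as an average probe on the array.

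**Figure D1:**
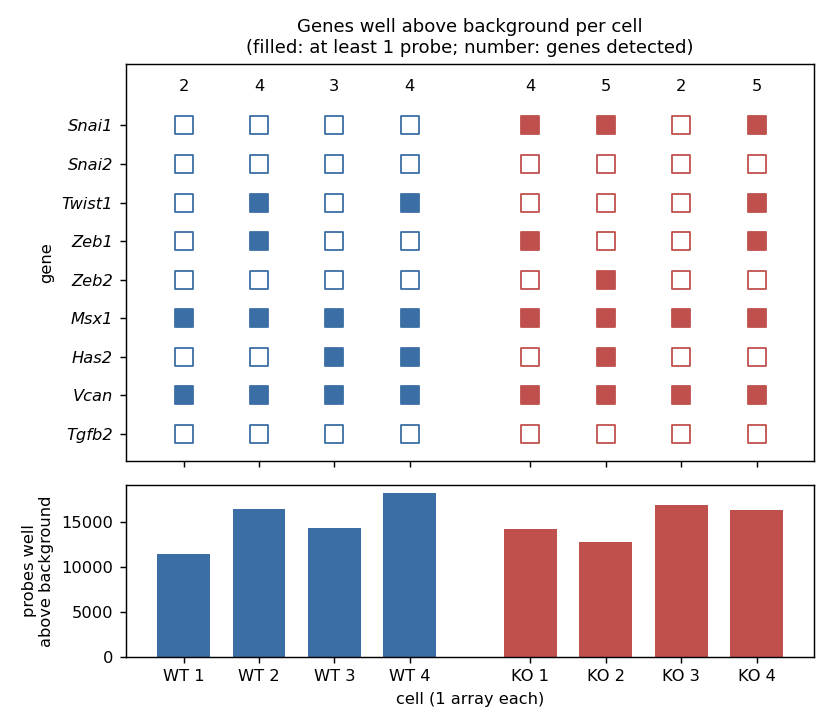
Detection of the 9 genes (rows) in each of the 8 cells (columns, WT in blue and KO in red); a filled square marks at least 1 probe well above background, the number above a column is the count of genes, and the bars below give the probes well above background on that array. *Vcan* and *Msx1* are filled in every cell, *Snai1* in 3 KO cells and no WT cell, and *Snai2* and *Tgfb2* in no cell.

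Signals below are deposited intensities multiplied by 1 factor per array to equalise the 50th percentile of the 7570 probes detected everywhere. For differences, scaled signals under 50 were set to 50, which is 5.64 on the log2 scale, and log2 was taken. A difference is the mean log2 value of the 4 KO cells minus that of the 4 WT cells. The cDNA of each cell was amplified before labeling, so a dark probe does not show that its transcript was absent from the cell.

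*Snai1* encodes the zinc finger repressor SNAIL, which acts on junction genes such as *Cdh5* and *Cdh1* in EMT. Its scaled signals were 4.09, 1.33, 2.196 and 1.19 across WT cells 1 to 4, against 941, 11304, 1.48 and 36.3 across KO cells 1 to 4. It was detected in 0 of 4 WT cells and in KO cells 1, 2 and 4, and the genotypes overlap because KO cell 3 was as dark as the WT cells. Among all 26833 probes detected in at least 1 cell, 0.734% were detected in no WT cell and in at least 3 KO cells, and 0.842% in no KO cell and at least 3 WT cells.

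The mean log2 value of *Snai1* was 8.66 in KO cells and at the floor of 5.64 in WT cells, a difference of 3.01 with an SD between cells of 2.67. This is 8.08-fold higher in KO cells at a floor of 50, to which KO cells 3 and 4 were raised as well. Against the lowest measurable signal of each WT array it is 17.8-fold, with KO cell 3 taken at its undetected signal of 1.48. As all WT cells and KO cell 3 were dark, both values depend on these settings and neither is a strict bound. *Snai1* was the only one of the 9 genes at least 5-fold higher in KO cells, while none was at least 5-fold lower. Over all detected probes, 2.83% were at least 5-fold higher and 2.85% at least 5-fold lower, and the 7 detected genes are too few to set a share against these. The difference rested mainly on KO cell 2: without it, *Snai1* differed by 1.41, below 5-fold, and without KO cell 1 by 2.61.

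*Twist1* encodes a basic helix-loop-helix factor that promotes the growth and migration of cushion mesenchyme. Its scaled signals were 4.66, 260, 2.07 and 319 across WT cells 1 to 4, against 3.15, 3.74, 1.34 and 2406 across KO cells 1 to 4. WT cells 2 and 4 and KO cell 4 were detected, so the gene was bright in some cells of both genotypes and the groups overlap. The log2 difference was 0.13 with an SD of 2.23, it became -1.26 without KO cell 4, and its sign turned with the scaling (-0.10 when the 75th percentile was used), so *Twist1* has no stable direction.

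*Zeb1* encodes a zinc finger repressor of E-cadherin. Its scaled signals were 4.27, 6128, 2.21 and 5.29 across WT cells 1 to 4, against 9844, 14.1, 1.46 and 1488 across KO cells 1 to 4. WT cell 2 and KO cells 1 and 4 were bright, at log2 values of 12.58, 13.26 and 10.54, and the genotypes overlap. The difference was 1.39 with an SD of 3.63, and it fell to -0.10 when KO cell 1 was left out and reached 3.13 when WT cell 2 was. The probe lies at chr18:5774613-5774672 on the plus strand.

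*Zeb2*, a relative of *Zeb1*, has 2 probes on 1 transcript whose starts are 2736 bases apart. The one nearer the 3′ end had scaled signals of 14.6, 1.31, 2.08 and 1.09 in WT cells and 3.21, 138, 1.33 and 1.96 in KO cells. KO cell 2 alone was well above background, at a log2 value of 7.10, and the second probe was well above background in no cell. The difference of the first probe was 0.37 with an SD of 0.52 and was 0.00 without KO cell 2.

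*Snai2*, which encodes SLUG, had no scaled signal over 3.80 in any cell. No WT or KO cell passed either detection call of the scanner software, so that no level and no difference can be given. The lowest scaled signal that was called well above background lay between 5.29 and 17.7 on the 8 arrays. This bounds the signal of a dark probe and not the transcript level in the cell before amplification.

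*Msx1* encodes a homeodomain factor of the cushion endocardium and mesenchyme that responds to BMP. Its scaled signals were 9113, 22.0, 47.0 and 521 across WT cells 1 to 4, against 290, 45.2, 215 and 29.8 across KO cells 1 to 4. All 8 were well above background, but 4 of them, 2 of each genotype, were under the floor, and the genotypes overlap. WT cell 1 was by far the brightest and WT cell 4 the next.

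The mean log2 value of *Msx1* was 8.37 in WT and 6.80 in KO cells, a difference of -1.56 with an SD of 2.70. The difference was 0.03 without WT cell 1, the cell whose array was marked for evaluation, and -2.47, past 5-fold, without WT cell 2 or WT cell 3. Over the 8 cells the SD of *Msx1* was 2.63, and 89.7% of the 7570 probes detected in all cells had a smaller SD over the cells (median 0.755). It was therefore the most steadily detected of the transcription factors and also widely spread in level.

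**Figure D2:**
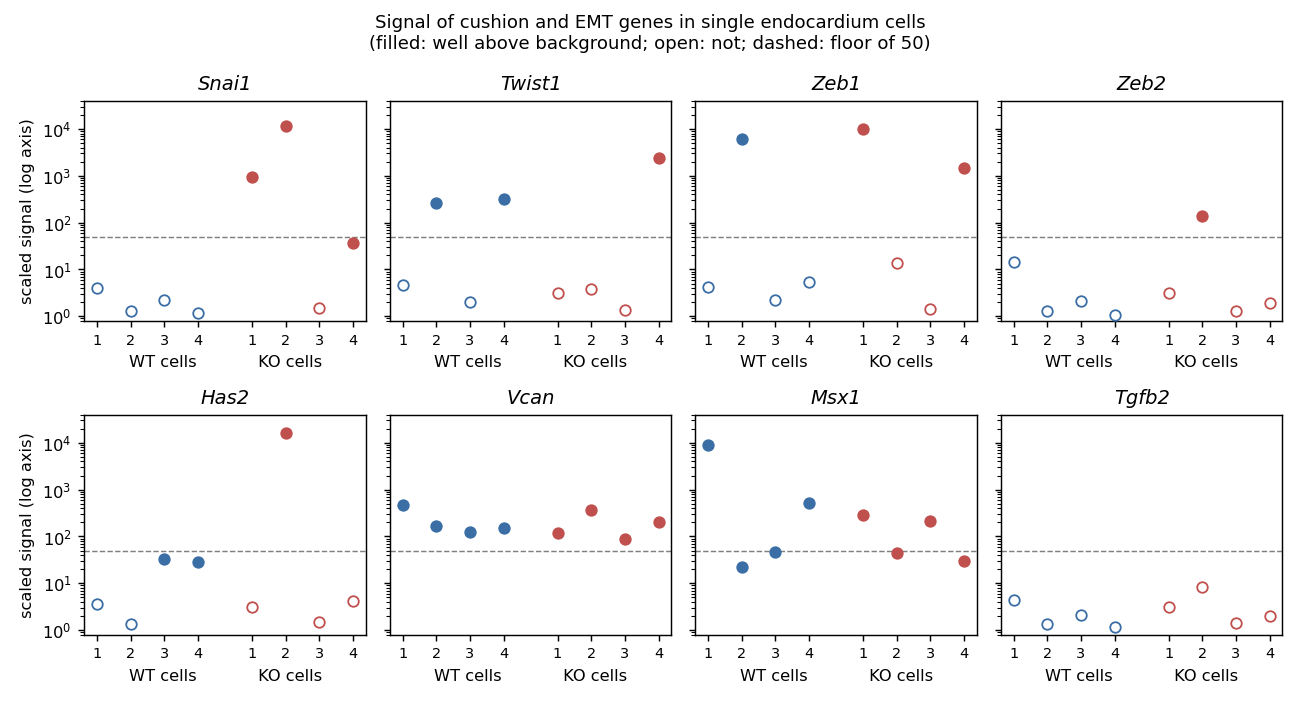
Scaled signal on a log axis of 8 genes, each by its leading probe (the one with the highest mean), in each WT cell (blue) and KO cell (red); filled points are well above background and the dashed line is the floor of 50. *Snai1*, *Zeb1*, *Twist1* and *Has2* are split into dark cells and cells up to 15998, while the *Vcan* signals lie between 88.1 and 473.

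*Has2* encodes the enzyme that makes the hyaluronan of the cardiac jelly and is required for cushion formation. Its scaled signals were 3.58, 1.32, 33.2 and 28.8 across WT cells 1 to 4, against 3.10, 15998, 1.52 and 4.16 across KO cells 1 to 4. WT cells 3 and 4 and KO cell 2 were well above background, and the 2 WT cells were under the floor. KO cell 2 was the single bright cell, at a log2 value of 13.97, in the same cell in which *Snai1* and *Zeb2* were brightest.

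The log2 difference of *Has2* was 2.08 with an SD of 2.94, and it was 0.00 without KO cell 2. The other 3 KO cells did not differ from the WT cells at this floor, and 2 of the WT cells had more signal than they did.

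*Vcan* encodes versican, the large proteoglycan that binds hyaluronan in the cardiac jelly. Its detected probe had scaled signals of 473, 171, 126 and 148 across WT cells 1 to 4, against 121, 366, 88.1 and 200 across KO cells 1 to 4. All 8 were above the floor, WT cell 1 and KO cell 2 were highest, and the ranges overlap for most of their length. The mean log2 value was 7.62 in WT and 7.38 in KO cells, a difference of -0.24 with an SD of 0.88. The sign turned without WT cell 1 (0.18), without KO cell 3 (0.07) and with quantile normalization (0.08). Before scaling, the intensities were between 63.2 and 266.

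The SD of this probe over the 8 cells was 0.82, and 55.1% of the probes detected in all cells had a smaller one, so *Vcan* was spread about as much as a typical probe of that kind. The dark probe on the same transcript starts 1738 bases further 3′, and its signal and that of the third probe were at most 4.69 in every cell. The starts of the detected probe and of this dark probe are as far apart in the genome as in the transcript. No intron of that transcript therefore lies between them. The annotation of the probes does not name their exons, and why the probe further 3′ was dark was not tested. The steady signal is that of 1 of 3 *Vcan* probes. Versican transcripts are known to differ by alternative splicing, and which of them a probe can bind was not examined.

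Among probes detected in at least 4 cells, 12244 in all, the 3 most like the *Vcan* probe over the 8 cells were 1 of *Kpna6*, an importin alpha gene (Pearson r 0.943), and 2 of noncoding regions that are named by position (r 0.947 and 0.938). These are the highest of many correlations over 8 points that share an array each, and they are given as a description. *Vcan* was the only one of the 9 genes above the floor in at least 5 cells, so no other was set against the rest of the array in this way.

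*Tgfb2* encodes TGF-beta2, the ligand most closely tied to cushion EMT in the mouse. Its 2 probes start 1799 bases apart on 1 transcript, and neither was well above background in any cell. Under the looser call of the scanner software, a positive and significant signal, 1 probe was called in KO cell 2, at a scaled signal of 8.35, and the other in KO cells 3 and 4, at 2.33 and 9.05. No WT cell was called by either probe, and no KO cell was called by both, so a difference cannot be read from them.

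**Figure D3:**
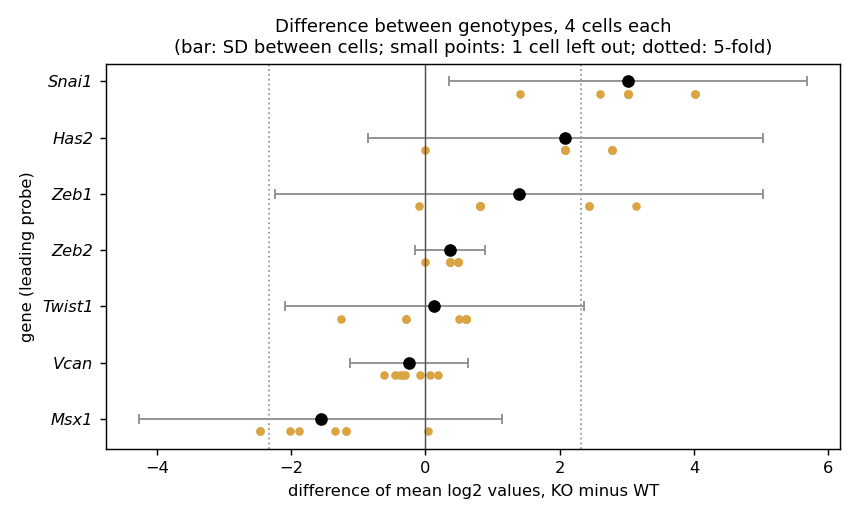
KO minus WT difference in mean log2 value of the 7 detected genes by leading probe (black point), with the SD between cells as the bar; the small points are the same difference with 1 of the 8 cells left out, and the dotted lines mark 5-fold. *Snai1* is the only black point past 5-fold, the small points of *Has2* reach 0.00 and those of *Msx1* run from -2.47 to 0.03.

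Over the 7 detected genes, 5 were higher and 2 lower in the KO cells, with a median log2 difference of 0.37 against 0.00 over all 26833 detected probes. Without KO cell 2, *Has2* and *Zeb2* showed no difference, which left 3 higher and 2 lower, and the median was 0.00. *Twist1*, counted as higher, turned negative under several settings, and *Vcan*, counted as lower, turned positive with quantile normalization. In no gene did all cells of 1 genotype lie above all cells of the other, as 1.1% of all probes did toward KO and 0.242% toward WT. The median SD between cells was 2.67 over the 7 genes and 0.64 over all detected probes, many of which were at the floor in most cells. The difference exceeded its SD in *Snai1* alone.

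The bright cells of the different genes were not the same cells. KO cell 2 had the highest *Snai1*, *Zeb2* and *Has2*, but no *Twist1* or *Zeb1* well above background. KO cell 4 had *Snai1*, *Twist1* and *Zeb1*, WT cell 2 had *Twist1* and *Zeb1*, and KO cell 1 had *Snai1* and *Zeb1*. WT cell 1 and KO cell 3 had none of the 5 genes that varied in detection, and both still had *Vcan* and *Msx1*.

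Markers of other cell types varied over the same cells, and their part in these results was not tested. The summed signal of the 9 cardiomyocyte markers, on the log2 scale, ran from 8.31 to 15.06 in WT and from 9.97 to 15.57 in KO cells. The 3 cells with bright *Zeb1*, WT cell 2, KO cell 1 and KO cell 4, had the 3 highest sums, 15.06, 15.57 and 14.82, a pattern picked out after the values were seen. These sums rest on few bright markers, such as *Actc1* in KO cell 1 (15.32) and *Myl4* in WT cell 2 (14.03). *Tnnt2* was at the floor in both, but at 11.37 in WT cell 3 and 13.26 in KO cell 4. By markers detected, WT cell 2 and KO cell 4 were highest, with 7 each. KO cell 1 had 4, fewer than WT cells 3 and 4, with 6 and 5. KO cell 2, with the brightest *Snai1* and *Has2*, had the second lowest cardiomyocyte sum, 9.97, and the highest sum of endocardial markers, 16.28, against 12.78 to 15.12 in the other cells. Its brightest endocardial marker was *Kdr* (15.31). By markers detected it had 9 of 10, as did WT cell 3 and KO cell 3, against 10 in WT cell 4. *Tbx5* and *Myh6* were under the floor in all cells.

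Of the 3 smooth muscle markers 2 were detected in every cell, with summed log2 signals from 6.05 to 13.81 in WT and from 5.84 to 12.92 in KO cells. WT cell 2 and KO cell 4, both with *Twist1*, had the 2 highest sums, while WT cell 4, also with *Twist1*, was at 6.24. Of the 6 mesenchyme markers 1 to 3 were detected in WT cells and 2 in each KO cell, with sums from 5.51 to 14.73 in WT and from 6.31 to 13.53 in KO cells. *Pdgfra*, *Col1a1* and *Postn* were under the floor in all 8 cells. The 5 blood markers had 1 gene detected in each of WT cells 1 and 2 and none in the others.

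**Figure D4:**
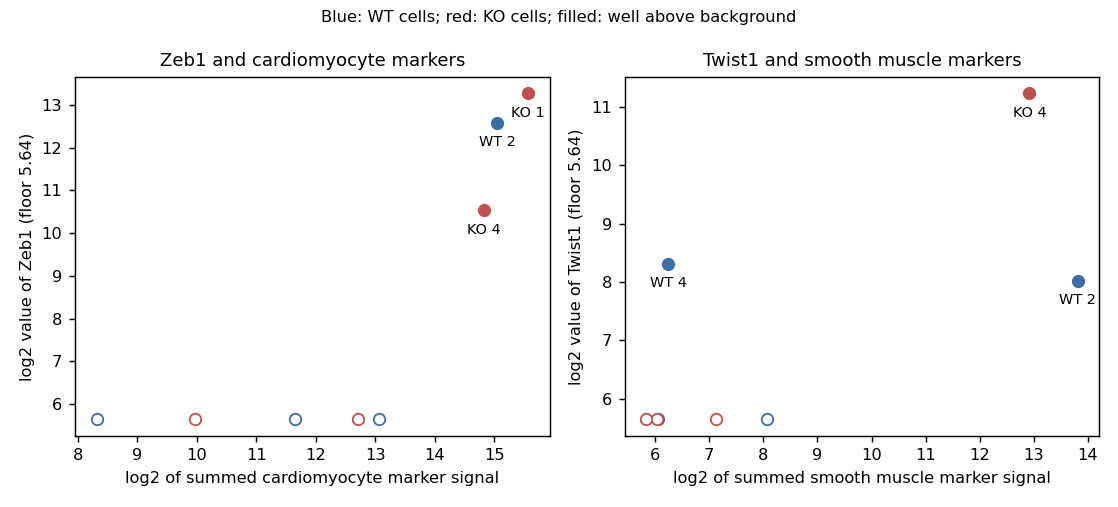
Log2 value of *Zeb1* against the log2 of the summed cardiomyocyte marker signal (left) and of *Twist1* against that of the smooth muscle markers (right), with 1 point per cell (WT blue, KO red, filled where the gene was well above background). The 3 cells with bright *Zeb1* lie at 14.82 to 15.57 on the marker axis, and the *Twist1* cells lie at 6.24, 12.92 and 13.81. The smooth muscle sums of 12.92 and 13.81 are nearly all *Acta2*.

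The genes around the 9 in the same process were described from 4 lists of related genes. Of 13 ligands and receptors, 10 were detected, 0 were at least 5-fold higher in KO cells and 2 at least 5-fold lower, with a median difference of -0.30. Over all detected probes these shares were 2.83% and 2.85%, and each of the 4 lists has too few detected genes to set a share against them. The 2 were *Tgfbr2* and *Acvr1*, which encode receptors of TGF-beta and of BMP ligands. The log2 values of *Tgfbr2* were 5.64, 9.87, 11.42 and 11.27 across WT cells 1 to 4, against the floor in every KO cell. Its second probe gave no difference and was detected in 1 KO cell, so the lower signal is that of 1 of 2 probes. *Acvr1* differed by -3.15 with an SD of 3.46, by -2.55 at its other probe, and was bright in 3 WT cells and in KO cell 4. It was well above background in 4 WT and 3 KO cells at the first probe, some of them under the floor. By any probe it was detected in 4 WT and 4 KO cells. The ligands *Bmp4*, *Tgfb1* and *Tgfb3* were, like *Tgfb2*, detected in no cell, and 51.5% of all single probes were detected in none either. Of the other ligands, *Bmp2* and *Jag1* were detected in 1 WT cell each, and *Bmp10* in 1 WT cell and 2 KO cells.

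Of 12 other EMT and cushion transcription factors, 6 were detected, 2 were at least 5-fold higher (2.83% of all detected probes) and 1 lower (2.85%), and their median difference was 0.65. *Gata4*, a cardiac zinc finger factor that is needed for cushion EMT, had log2 values of 5.64, 5.64, 11.08 and 5.64 in WT cells and 12.62, 15.87, 12.04 and 13.25 in KO cells. Its KO cells all lay above its WT cells, as did those of 1.1% of all detected probes, with a difference of 6.44 and an SD of 2.26. It is named because the rule for the lists picks genes without overlap. It was bright in KO cell 3, in which *Snai1* was dark. The others past 5-fold were named after their values were seen: *Tcf4* differed by 3.93 with an SD of 3.22 at 1 probe and by 0.00 at the other, and *Tcf3* by -2.66 with an SD of 2.84. *Snai3*, *Twist2*, *Sox9*, *Prrx1*, *Tbx2* and *Tbx3* were detected in no cell, where 51.5% of all single probes were detected in none.

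Of 16 genes for cushion matrix and its turnover, 15 had a usable probe and 10 were detected, with 1 at least 5-fold higher (2.83% of all detected probes), 2 lower (2.85%) and a median difference of 0.01. *Hapln1*, which links hyaluronan to versican, differed by -3.01 with an SD of 3.30, and KO cell 1 alone was at the floor. *Hyal2*, a hyaluronidase, differed by -2.97 with an SD of 2.21, and was lower in KO cells 1 and 4 (log2 7.75 and 7.99) than in the 6 other cells (12.05 to 15.17). *Mmp2* was the gene past 5-fold in the other direction, at 2.36 with an SD of 3.77. *Fn1*, for fibronectin, stood out by its even and high signal, with log2 values of 16.48 to 17.70 in all 8 cells.

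Of 13 genes of junctions and the mesenchymal state, 10 were detected, 0 were at least 5-fold higher (2.83% of all detected probes) and 1 lower (2.85%), with a median difference of -0.38. *Pdgfrb*, a receptor of mesenchymal and mural cells, differed by -2.52 with an SD of 2.25, and was detected in 3 WT cells and no KO cell, where 0.842% of all detected probes were found in at least 3 WT cells and no KO cell. *Cldn5*, for an endothelial tight junction protein, differed by -1.96 with an SD of 2.03, with 2 WT cells and no KO cell detected. *Vim*, for the intermediate filament vimentin, was at log2 values of 15.13 to 17.14 in every cell. *Cdh1*, a repressed target of the SNAIL and ZEB factors, was detected in no cell of either genotype, so that no lower level could be measured in either. *Cdh5*, named above as a target of SNAIL, was above the floor in all 8 cells and differed by -0.96 with an SD of 1.48. It was highest in KO cell 2 (14.08) and lowest in KO cell 1 (9.50), the 2 cells with the brightest *Snai1*. A link between the 2 genes was not tested.

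**Figure D5:**
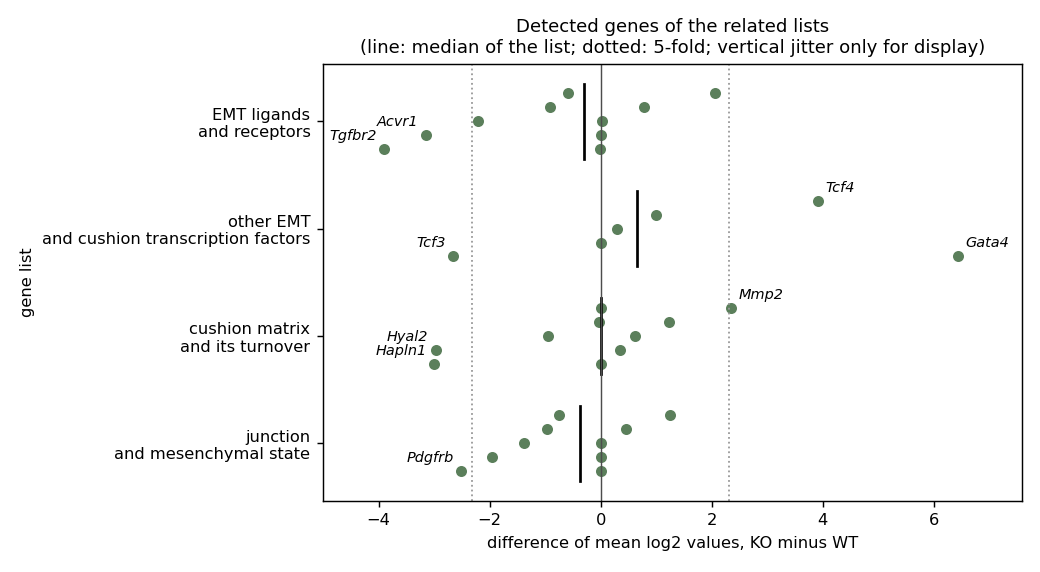
KO minus WT difference in mean log2 value of the detected genes of 4 related lists (1 point per gene by its leading probe, spread vertically for display), with the median of each list as the solid line and 5-fold as dotted lines. The list medians lie between -0.38 and 0.65, and *Gata4* is farthest from 0, at 6.44.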

How the data were processed

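Single-cell cDNA was amplified, transcribed in vitro, labeled with Cy3 and hybridised to a 1-colour Agilent array (design 028005) by the authors, who identified cell types by marker PCR. The intensity values deposited by the authors are scanner output of Agilent Feature Extraction 12.0.2.2, background-subtracted but not normalized between arrays.

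Control and outlier spots were left out and spots of a probe averaged, which kept 55295 of 55681 probes. Detection required over 50% of spots well above background. Each array was scaled to a common 50th percentile of the 7570 probes detected on all arrays, a floor of 50 was applied and the deposited intensities were then expressed as log2. Genes with several probes are represented by their leading probe, the one with the highest mean. No probe was saturated. RefSeq names (assembly GRCm38.p6) were used for 28131 probes, and positions are those of the deposited annotation (mm9). Sequences are those of the probes in the deposited files.

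The genes, lists and rules were chosen with earlier results of these data known. All 9 genes are named. From the related lists, genes at least 5-fold apart without overlap are named, or otherwise the 2 with the largest difference, and others as stated. The 5-fold size follows the methods of the study. No test was made. Alternatives covered the percentile and its probes, the order of floor and scaling, quantile normalization, normexp (limma 3.58.1, offset 50), floors of 10 and 200, the choice of probe, a looser detection call and the omission of each cell in turn, with no floor and no scaling added after the data were seen. The steps were tested on simulated data in which the shifted probes were bright and no signal was lost from single cells. Most of the 9 genes are unlike those probes, and the simulation does not bear on genes that are dark in some cells. Python 3.11.15, numpy 2.4.6, pandas 2.3.3 and R 4.3.3 were used.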

Additional observations from a re-analysis of the deposited data

Results flagged for a closer look

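In groups of 4 cells, a cell was marked where its gap to the nearest other cell was too large a share of the whole range of the group by Dixon's 95% criterion. Of 11 groups of a gene and a genotype examined, 4 were marked, where chance marks about 1 in 20. They were *Twist1* in KO cells (KO cell 4), *Zeb1* in WT cells (WT cell 2), *Zeb2* in KO cells (KO cell 2) and *Has2* in KO cells (KO cell 2), each with a ratio of 1. In each of the 4 the other 3 cells were at the floor of 50, so that any single bright cell gives this ratio.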

How the results depend on the processing

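No paired analysis was possible because no result comes from a test, and the shared numbers 1 to 4 only name cells. Of the 9 genes, 1 was at least 5-fold higher in KO cells with the main settings, 0 with a floor of 200 and 2 with no floor. Leaving out each cell in turn gave 1 to 3 genes at least 5-fold higher (2 without WT cell 2, KO cell 1 or KO cell 4, and 3 without KO cell 3) and 0 to 1 at least 5-fold lower (1 without WT cell 2 or WT cell 3). Without KO cell 2 the count stayed at 1, but the gene was *Zeb1*, at 2.44, in place of *Snai1*, at 1.41. The median log2 difference over the detected genes was 0.13 with the percentile of all probes to 1.18 with no floor, and 0.00 (without KO cell 2) to 0.60 when 1 cell was left out. *Snai1* stayed higher in KO cells, at 2.01 with a floor of 200, 4.64 with a floor of 10 and 6.31 with no floor, where the dark cells have no meaningful order. *Twist1* was at -0.45 with a floor of 10, -0.13 with the percentile of all probes, -0.24 with no scaling, -0.08 with normexp and -1.10 with no floor, but at 0.63 with a floor of 200, 0.28 with quantile normalization and 0.0027 with the floor set before scaling. Under the looser detection call, the median number of genes was 3.5 in WT and 5.5 in KO cells. The shares of all probes at least 5-fold higher and lower moved from 2.83% and 2.85% to 2.25% and 3.50% with the 75th percentile, 2.21% and 3.27% with the percentile of all probes and 2.17% and 3.29% with no scaling. Changes of the floor moved them to 1.38% and 1.01% with a floor of 200, 5.36% and 5.53% with a floor of 10 and 8.72% and 7.58% with no floor. The median difference of all probes moved from 0 to 0.24 with the floor set before scaling, 0.23 with normexp, 0.15 with a floor of 10 and 0.34 with no floor, and differences under those settings are relative to these. Depth limits the signal of the dark genes to a bound, the lowest measurable signal on each array. Their transcript levels in the cell before amplification are not bounded by it.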
